A study of Mus musculus with 2 samples.

Results

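The cells described here carry the annotation label Tenocytes in 2 single-cell libraries of injured mouse muscle. Members were the barcodes given that label in the deposited annotation and matched to the count matrix of the same library. There were 65 of them among 6953 annotated cells, 16 at day 2 and 49 at day 7. Each library came from the tibialis anterior muscle of 1 C57Bl/6 mouse that had been injected with notexin, a venom phospholipase that kills muscle fibres, and the dissociated whole muscle was loaded on the 10x Chromium v3 system. The day 2 library was collected 2 days and the day 7 library 7 days after injury. The sample labels give both mice as 7 months old and female, whereas the annotation gives 4 months for day 2, 7 months for day 7 and male for both. The 4 Y-linked genes Ddx3y, Uty, Eif2s3y and Kdm5d had 5457 UMIs (unique molecular identifiers, counted molecules) at day 2 and 4176 at day 7, against 4 and 1 for Xist. These counts match the sex in the annotation and not that in the sample labels. With 1 library per time point there is no replicate check, so no test between time points was possible and every interval below covers counting error only. Time point, mouse and library cannot be told apart.

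Tenocytes are the fibroblasts of tendon, which joins muscle to bone and is built mainly of aligned type I collagen fibrils. They are known for the transcription factors Scx and Mkx, the membrane protein Tnmd, and matrix proteins that bind collagen fibrils, among them the small leucine-rich proteoglycans Fmod and Kera and the pentameric glycoproteins Comp and Thbs4. Fibro-adipogenic progenitors (FAPs) are the resident mesenchymal cells between muscle fibres, marked by Pdgfra and Ly6a, and they too make collagen during repair. The annotation divides FAPs into pro-remodeling, adipogenic and stem labels, which are the mesenchymal labels compared with the tenocytes here.

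Cells with at least 750 genes, 1000 transcripts and at most 30% mitochondrial transcripts were used, which left 16 day 2 and 48 day 7 members of 3208 and 3221 cells. The member left out at day 7 had 1227 UMIs and none of the 4 marker genes. The day 2 members held 157904 UMIs in all with a median of 6704 per cell (2749 to 30398), and the day 7 members 446790 with a median of 8442 (1636 to 31636). The day 7 FAP labels compared with them had 495 pro-remodeling, 232 adipogenic and 78 stem cells. No barcode was shared between the members of both libraries, and 1 barcode was shared among all cells used. Labels were assigned from clusters of the same cells, so differences between labels are descriptions and were not tested.

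The share of cells with the Tenocytes label was 0.503% at day 2 (95% Clopper-Pearson interval 0.288% to 0.816%, 16 of 3178 cells with a cell type) and 1.50% at day 7 (1.11% to 1.99%, 48 of 3196). The difference was 0.998 percentage points (0.497 to 1.53). Among cells outside the immune labels the shares were 1.76% and 2.57%, and their difference of 0.809 points had an interval that included 0 (-0.465 to 1.92). Counting only members with at least 4 UMIs of the label markers, the shares were 0.409% at day 2 and 0.501% at day 7, and the difference was 0.0916 points.

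The label was checked against Tnmd (ENSMUSG00000031250, chrX:133850980-133865577, plus strand), Fmod (ENSMUSG00000041559, chr1:134037254-134048277, plus strand), Kera (ENSMUSG00000019932, chr10:97606879-97613692, plus strand) and Comp (ENSMUSG00000031849, chr8:70373558-70382066, plus strand), with positions from GENCODE vM21 on mm10. At day 2, 14 of 16 members held a UMI of at least 1 of these genes and 13 held 4 or more in sum. At day 7, 22 of 48 members held any, and 16 held 4 or more. The other 32 day 7 members held 11 marker UMIs among them, and 26 held none. The data therefore went against the label for 32 of 48 day 7 cells. Their depths overlapped: the 16 with 4 or more had a median of 6957 UMIs (3559 to 30070) and the other 32 a median of 8546 (1636 to 31636). Both kinds of cell are described apart from here on, as marker-bearing (4 or more marker UMIs) and marker-poor (under 4) cells. Since a member without these UMIs may still express the genes below detection, the names say only what was counted. The division was made after the values were seen, and 2 cells at 3 UMIs lay just under it and single cells at 4 and 9 UMIs just above it.

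**Figure D1:**
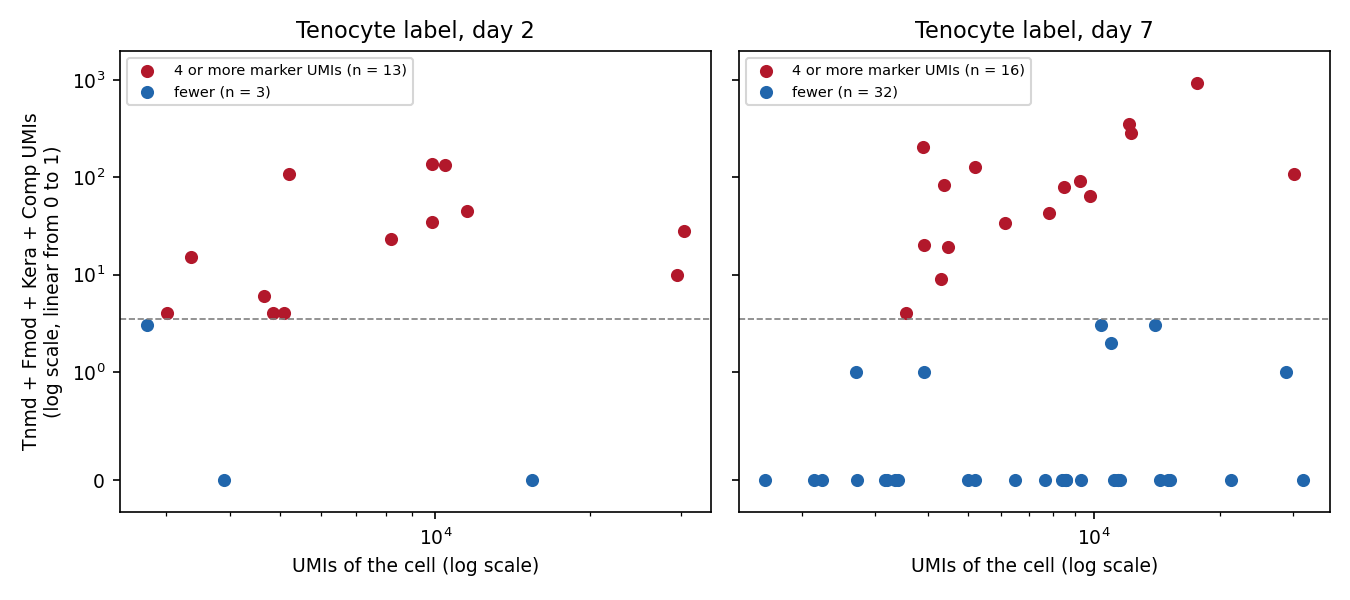
Summed UMIs of Tnmd, Fmod, Kera and Comp (y axis, log scale above 1 and linear below) against the UMIs of the cell (x axis, log scale), 1 point per cell with the Tenocytes label. At day 7, 16 cells (red) held 4 to 923 marker UMIs and 32 cells (blue) 0 to 3, at overlapping depths, while at day 2 13 of 16 cells held 4 or more.

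The share of day 7 members with a UMI was 29.2% for Tnmd, 39.6% for Fmod, 18.8% for Kera and 20.8% for Comp. In macrophages, which should lack these genes and had a median of 8816 UMIs, the shares were 0.203%, 1.02%, 0 of 492 cells and 1.02%. A count of 0 in 492 cells allows a share of up to 0.610% with a UMI when taken as 3 counts of the total, and the Clopper-Pearson upper bound is 0.747%. Thinned to 2000 UMIs per cell, with 1 member left out, the shares in the members were 25.5%, 38.3%, 10.6% and 17.0%. At day 2 Tnmd was found in 8 of 16 cells (95% interval of the share 24.7% to 75.3%), and the unthinned shares were 81.2% (54.4% to 96.0%) for Fmod, 37.5% (15.2% to 64.6%) for Kera and 43.8% (19.8% to 70.1%) for Comp.

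Fmod, which binds collagen fibrils and regulates their thickness, had UMIs in all marker-bearing cells. The counts of the 4 markers are a description, since their sum chose the cells. Fmod was present in 16 of 16 of them, with 3 to 672 UMIs per cell and a median of 46.5, and in 3 of 32 marker-poor cells with 1 UMI each. Tnmd was present in 13 of the 16 and in 1 of the 32. Kera was present in 9 of the 16 and in none of the 32, and Comp in 7 of the 16 and in 3 of the 32. The sequences before the transcription starts are shown for Tnmd, Fmod and Thbs4, because Scx is a basic helix-loop-helix factor and such factors bind the E-box CANNTG. The 250 bases before each RefSeq start on GRCm38.p6 are given 5′ to 3′ in the direction of transcription, with every CANNTG in capitals. The motif reads as CANNTG on the other strand as well, and overlapping matches were allowed. RefSeq and GENCODE place some starts differently: the last 28 bases of the Tnmd stretch lie within the gene as GENCODE places it, and the Kera stretch, all of which does, is left out.
Tnmd (chrX:133850758-133851007, plus strand): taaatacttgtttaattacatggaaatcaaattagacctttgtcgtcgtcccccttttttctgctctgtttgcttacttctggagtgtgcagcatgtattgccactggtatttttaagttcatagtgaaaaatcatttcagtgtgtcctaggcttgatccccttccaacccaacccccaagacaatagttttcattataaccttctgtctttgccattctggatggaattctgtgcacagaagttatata
Fmod (chr1:134037004-134037253, plus strand): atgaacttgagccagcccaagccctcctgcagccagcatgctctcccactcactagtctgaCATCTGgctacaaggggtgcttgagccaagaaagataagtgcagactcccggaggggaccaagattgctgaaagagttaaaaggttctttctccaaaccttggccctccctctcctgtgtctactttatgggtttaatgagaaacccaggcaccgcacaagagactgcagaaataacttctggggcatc
Thbs4 (chr13:92794819-92795068, minus strand): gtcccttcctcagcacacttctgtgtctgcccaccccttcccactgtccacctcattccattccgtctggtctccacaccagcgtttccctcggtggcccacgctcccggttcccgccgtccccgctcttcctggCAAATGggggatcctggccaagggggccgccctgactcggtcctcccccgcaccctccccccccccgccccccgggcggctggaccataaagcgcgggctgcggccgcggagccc
The Fmod and Thbs4 stretches held 1 match each, and that of Tnmd held 0. Of 32851 such stretches, 66.2% held at least 1. These are matches of letters only, and no binding was measured.

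In the marker-bearing day 7 cells, genes known from tendon were higher than in FAPs beyond the 4 markers that chose the cells. Against the pro-remodeling FAPs, 115 of 3428 genes were 4-fold or more higher (3.35%) and 161 were 4-fold or more lower (4.70%). A gene entered such a comparison at 50 CPM (UMIs of a gene per 1000000 UMIs of the group) or more in at least 1 of the groups with a UMI in at least 20% of that group's cells. A gene under 50 CPM in 1 group thus entered only through the other, and could not be counted as lower there. Scx (ENSMUSG00000034161, chr15:76457452-76459458, plus strand), the transcription factor that marks tendon progenitors, was at 349 CPM (95% interval 259 to 459.9) in marker-bearing cells, with UMIs in 11 of 16, and at 0.34 CPM in pro-remodeling FAPs, with UMIs in 2 of 495. The log2 ratio was 10.00 (95% interval 8.08 to 13.09). Mkx (ENSMUSG00000061013, chr18:6934518-7004780, minus strand), a homeobox factor needed for tendon collagen, was at 126 CPM (95% interval 74.4 to 198), in 6 of 16 cells, and at 0.849 CPM in those FAPs. The other 3 genes of the tendon transcription factor list (Egr1, Egr2 and Sox9) were within 4-fold, Egr1 at 1319 CPM in marker-bearing cells and 1597 CPM in pro-remodeling FAPs.

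Several tendon glycoproteins were higher in the marker-bearing cells. The list holds Comp and Tnmd, whose UMIs helped choose these cells. Of its other 13 members all entered, 5 were higher (Thbs4, Cilp2, Chad, Cpxm2 and Ptx4) and 0 were lower, with a median log2 ratio of 1.65 beside -0.16 over all genes entered. These counts are a description. The cells were chosen by other tendon genes, and members such as Cilp2 entered only through these cells and could not have been lower. Thbs4 held 11 to 833 UMIs per marker-bearing cell and was present in all 16, at 24915 CPM (95% interval 24104 to 25746) against 1259 CPM in pro-remodeling FAPs. Cilp2, a cartilage intermediate layer protein, was at 495 CPM in marker-bearing cells and had 1 UMI in the 495 FAPs. Chad, a leucine-rich matrix protein that binds collagen and integrins, was at 293 CPM. Its UMIs lay in 4 of the 16 cells, all of which also held Comp. A single cell of 17657 UMIs held 672 of the 1778 Fmod UMIs of the marker-bearing cells, 32 of 71 of Cilp2, 32 of 42 of Chad, 138 of 169 of Angptl7 and 16 of 50 of Scx. Postn and Cilp, by contrast, were at 2072 and 3489 CPM in marker-bearing cells, within 4-fold of the pro-remodeling FAPs.

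Collagen genes divided in direction. Among fibrillar collagens, 9 of 11 entered, Col11a1 and Col11a2 were higher, and Col3a1 and Col5a3 were lower (median log2 ratio -0.46). Col11a1, a minor fibrillar chain that nucleates fibrils, was present in 16 of 16 marker-bearing cells with 1 to 22 UMIs, at 760.5 CPM (95% interval 624 to 917), and was at 1.53 CPM in pro-remodeling FAPs. Col3a1, the collagen of loose and healing connective tissue, was at 4389 CPM (95% interval 4052 to 4745) in marker-bearing cells and at 26213 CPM in those FAPs, a log2 ratio of -2.58 (95% interval -2.69 to -2.47). Col1a1, the main tendon collagen, was at 15496 and 21342 CPM, within 4-fold. Of 13 other collagens 12 entered, with Col8a2, Col12a1 and Col22a1 higher and Col4a1, Col6a3, Col14a1 and Col15a1 lower (median -1.41). Of the 12 small leucine-rich proteoglycans other than the label markers Fmod and Kera, 9 entered, with Chad higher and Lum and Podn lower (median -0.37), and Dcn, the most abundant of them, was at 10800.5 against 15411 CPM.

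Most FAP identity genes were lower in the marker-bearing cells. Of 16 FAP markers 15 entered, 10 were lower and 0 higher (median log2 ratio -2.68). Pdgfra, the receptor that defines FAPs, had 1 UMI in the 16 cells and was at 6.98 CPM (95% interval 0.177 to 38.9), against 445 CPM in pro-remodeling FAPs. Clec3b, a fibroblast-secreted plasminogen-binding lectin, had 2 UMIs (14 CPM against 1374 CPM), and Pi16 and Hic1 had 0. Dpt was at 55.8 against 846 CPM. The sum of the 16 FAP markers was nevertheless 10668 CPM in marker-bearing cells against 18488 CPM in pro-remodeling FAPs, and Apod (4151 CPM), Gsn (2854 CPM) and Cxcl14 (1891 CPM) made up most of it.

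Members of the other lists stand beside 3.35% higher and 4.70% lower of all genes entered. Lox, which cross-links collagen, was higher (1919 against 215 CPM), and P4ha2 was lower, among 16 of 20 collagen processing genes that entered. Mmp13, Timp1 and Timp3 were higher and Mmp19 and Adamts1 lower among 12 of 15 matrix proteases and inhibitors. Ltbp2 was higher and Eln, Mfap5 and Efemp1 were lower among 14 of 16 elastic fibre genes. Among secreted signals, Angptl7 and Dkk3 were higher and Igf2, Angptl1, Pdgfrl and Sfrp1 were lower of 16 that entered. No member of the TGF-beta and BMP list passed 4-fold of 13 that entered, with Tgfb2 at 160.5 and 128 CPM. Itga10, a collagen-binding integrin chain, and Cdh11 were higher among 12 of 16 mechanosensing and adhesion genes. Prg4, the lubricin of tendon sheath and joint surfaces, was higher (1556 against 88.8 CPM) and Tppp3 and Has1 were lower among 5 of 6 tendon sheath genes. Of 17 early inflammatory genes 7 entered and 4 were lower (Cxcl1, Ccl2, Has1 and Tnfaip6), and Atf3 was the 1 of 13 dissociation and immediate early genes past 4-fold, lower.

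**Figure D2:**
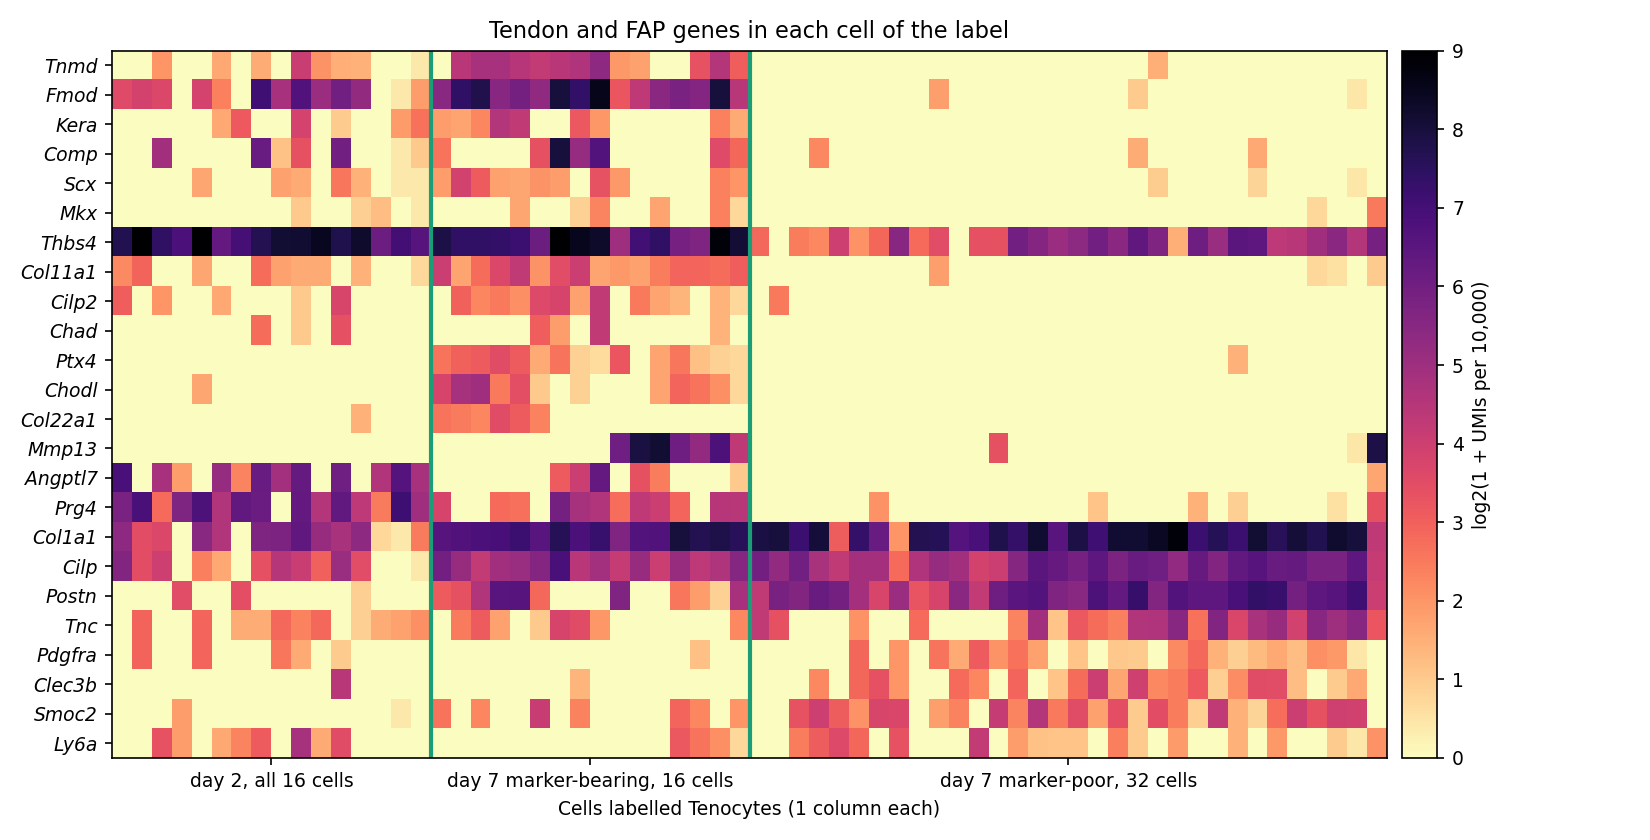
Colour gives log2(1 + UMIs per 10,000) of 24 genes (rows) in each cell with the Tenocytes label (columns), in 3 blocks for the 16 day 2 cells, the 16 marker-bearing and the 32 marker-poor day 7 cells. Apart from Thbs4, the rows from Tnmd to Col22a1 are nearly blank in the right block, and in the left block Ptx4 is blank, Chodl and Col22a1 are each in 1 cell and Comp is in 7 cells as in the middle block. In the right block Postn is present in all 32 cells and Pdgfra in 21, and Col22a1 and Mmp13 occupy separate columns of the middle block.

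The 16 marker-bearing cells differed among themselves. Col22a1 (ENSMUSG00000079022, chr15:71795795-72034227, minus strand), a collagen known from the junction of muscle and tendon, had 2 to 9 UMIs in 6 of them, and Mmp13, a collagenase, had 23 to 133 UMIs in 7 others. No cell held both, and 3 held neither. The 6 Col22a1 cells were at 1145 CPM of Chodl and 975 CPM of Kera, against 219 and 161 CPM in the 7 Mmp13 cells. Angptl7, a secreted angiopoietin-like protein, was at 0 CPM in the Col22a1 cells, 131 CPM in the Mmp13 cells and 4726 CPM in the 3 remaining cells, which were also the highest in Comp (9423 CPM against 268 and 468 CPM) and in Fmod (28713 CPM against 8140 and 6896 CPM). These sets were chosen after their values were seen and hold 33852 to 68443 UMIs each. Macrophage markers were at 16 and 25 UMIs in 2 of the Col22a1 cells, which together held 168 of the 193 Postn UMIs and 36 of the 40 Kera UMIs of the Col22a1 cells, and at 0 to 5 UMIs in the other 14. Without these 2, the other 4 Col22a1 cells were at 172 CPM of Kera, near the Mmp13 cells, and at 1461 CPM of Chodl. The cell of 17657 UMIs described above is one of the 3 remaining cells. Whether the 2 cells with macrophage markers are doublets, and their part in these differences, was not tested.

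The 32 marker-poor cells had collagen levels near those of FAPs and more Tnc. Thbs4 was also higher, but within 4-fold. Against the pro-remodeling FAPs, 20 of 3411 genes were 4-fold or more higher (0.586%) and 57 were lower (1.67%), with a median log2 ratio of 0.07 over all genes entered. These counts include the deepest cell, described below, and were not made without it. Col1a1 was present in 32 of 32 cells, at 20559 CPM against 21342 CPM, and Col3a1 was at 18118 against 26213 CPM. None of 7 fibrillar collagens that entered was past 4-fold. Pdgfra UMIs were found in 21 of 32 cells, with a sum of 54, at 178 CPM (95% interval 134 to 232). Scx had 3 UMIs and Chodl 0. Of 16 FAP markers 15 entered and 8 were lower (Ly6a, Cd55, Gsn, Mme, Cxcl14, Lpl, Apod and Ly6c1), with a median log2 ratio of -2.07.

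Tnc stood apart in the marker-poor cells. This matricellular glycoprotein, made in tendon, at the myotendinous junction and in wounds, had 0 to 128 UMIs per cell with a median of 4.5 and was present in 23 of 32 cells. Its level was 2056 CPM (95% interval 1898 to 2224), against 98.5 CPM (95% interval 90.6 to 107) in pro-remodeling FAPs, 10.9 CPM in adipogenic FAPs and 300.0 CPM in the marker-bearing cells. The 32 cells together held 624 Tnc UMIs and the 495 pro-remodeling FAPs 580. The log2 ratio to those FAPs was 4.38 (95% interval 4.22 to 4.55). Of 15 tendon glycoproteins 9 entered and Tnc was the 1 past 4-fold (median log2 ratio 0.33). Thbs4 was present in 30 of 32 cells, at 3981 CPM, a log2 ratio of 1.66 (95% interval 1.57 to 1.75) over pro-remodeling FAPs. Postn was present in 32 of 32 cells, at 8337 against 3403 CPM, and Cilp in 32 of 32, at 5727 against 2135 CPM. Both lay within 4-fold. Col8a1 was the 1 collagen higher past 4-fold, at 1312 against 303 CPM.

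Genes lower in the marker-poor cells than in pro-remodeling FAPs included Myoc (6.59 against 243 CPM), the steroid-activating enzyme Hsd11b1 (6.59 against 238 CPM), the aggrecanase Adamts5 (16.5 against 345 CPM) and the chemokine Cxcl14 (280.1 against 2900.4 CPM). All of these were also lower than in the adipogenic FAPs. Of the marker-poor cells, 2 held 1 and 2 Col1a1 UMIs where the median was 131, so they were unlike the others in collagen. Myofibre genes reached 166 UMIs in 1 marker-poor cell, of 294 in all 32. Their part was not tested.

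A single marker-poor cell, the deepest of the label with 31636 UMIs or 7.08% of all day 7 member UMIs, held most of the UMIs of several genes. It held 724 of 1243 Mmp13 UMIs of the 48 members, 151 of 156 of the gelatinase Mmp9, 70 of 71 of the cytokine Il11, 448 of 461 of the chemokine Cxcl10 and 353 of 371 of Ccl8. It also held 196 of 222 UMIs of the interferon-induced gene Ifit1 and 77 of 77 of Rsad2. Its tendon genes were mixed, with 15 Mkx and 183 Thbs4 UMIs and 0 of the 4 label markers, and it had 0 UMIs of Ptprc, C1qa and Pecam1. Without it, Mmp13 was at 25.8 CPM in the marker-poor cells in place of 2409 CPM, Cxcl10 at 44.1 in place of 1516 CPM, Ccl8 at 66.2 in place of 1223 CPM and Mkx at 3.68 in place of 52.7 CPM. Tnc without it was at 2196 CPM and Postn at 9131 CPM.

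**Figure D3:**
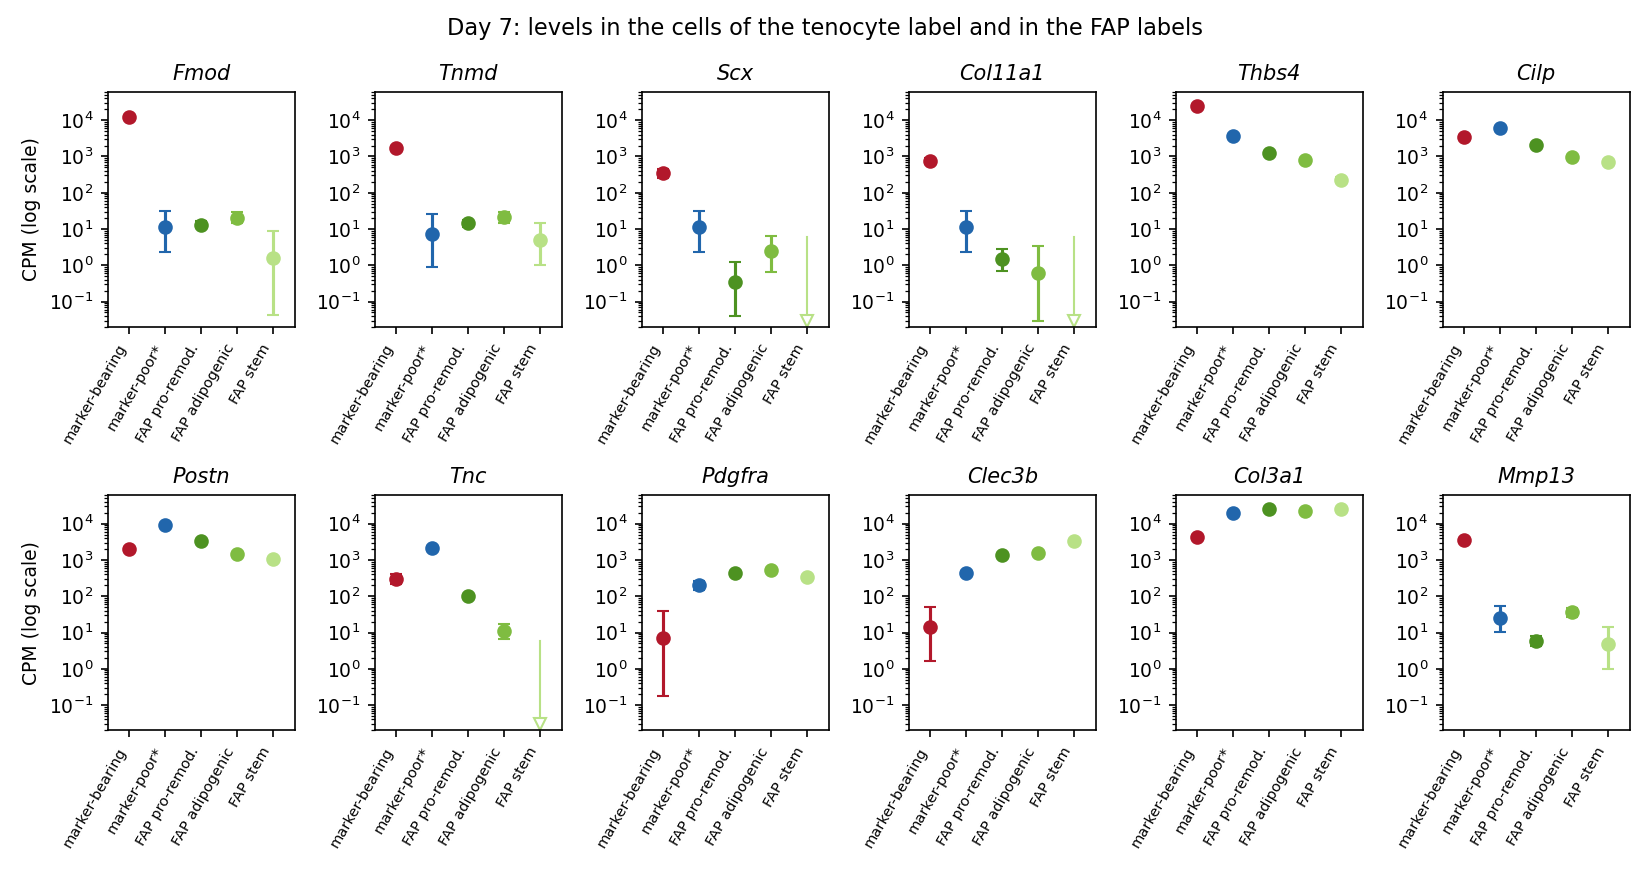
Levels in CPM (y axis, log scale) of 12 genes at day 7 in the 16 marker-bearing cells, the marker-poor cells without the deepest cell (asterisk, 31 cells) and the 3 FAP labels, with 95% Poisson intervals that cover counting error only. Open triangles mark 0 UMIs with the line up to the upper limit. Fmod, Tnmd, Scx, Col11a1 and Mmp13 are highest in marker-bearing cells, Tnc is highest in marker-poor cells, and Pdgfra and Clec3b are lowest in marker-bearing cells.

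The 48 day 7 members as labelled pool both kinds of cell. Against pro-remodeling FAPs 37 of 3361 genes were 4-fold or more higher (1.10%) and 52 lower (1.55%). Against adipogenic FAPs 57 of 3323 were higher (1.72%) and 85 lower (2.56%). Against stem FAPs 112 of 3508 were higher (3.19%) and 163 lower (4.65%). With the marker-bearing cells alone the counts against the adipogenic and stem labels were 107 and 176 higher and 137 and 200 lower. Of 15 tendon glycoproteins 14 entered and 7, 8 and 10 were higher than in the pro-remodeling, adipogenic and stem labels, with 0 lower and medians of 2.04, 2.12 and 4.15 beside -0.01, 0.08 and 0.01 over all genes entered. The list holds the label markers Comp and Tnmd, so these counts are not independent of the label. Of 16 FAP markers 15 entered and 7, 9 and 7 were lower, with 0 higher. The genes furthest above all 3 FAP labels were Fmod, Mmp13, Col11a1, Cilp2, Tnmd, Spp1, Scx, Chodl, Edil3, Ptx4, Tnc, Ddah1, Gas2, Fam101b and Gnai1. Chodl, a membrane lectin that the list used here counts as a myogenic marker, had 63 UMIs in 12 marker-bearing cells (439.6 CPM) and 0 in the marker-poor cells, against 2.72 CPM in pro-remodeling FAPs. Ptx4, a pentraxin, had 42 of its 44 UMIs in 15 marker-bearing cells. Spp1 (osteopontin) was at 2869 CPM in the label, and 1152 of its 1282 UMIs came from 1 marker-bearing cell. Edil3 was at 160.5 CPM (95% interval 102 to 241) in marker-bearing and 142 CPM (95% interval 103 to 191) in marker-poor cells, and at 47.8 CPM in the latter without the deepest cell. Ddah1 was at 41.9 CPM (95% interval 15.4 to 91.1) in marker-bearing and 122 CPM (95% interval 85.8 to 168) in marker-poor cells.

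The genes furthest below all 3 FAP labels were Scara5, Col6a6, Efemp1, Dpep1, Fst, Ly6c1, Vtn, Sfrp1, Myoc, Tnfaip2, Lgi2, Gstt1, Ms4a4d, Htra3 and Emilin2. Scara5, a ferritin receptor, had 2 UMIs in the 48 cells (4.48 CPM) against 144, 291 and 832 CPM in the pro-remodeling, adipogenic and stem labels. Efemp1, an elastic fibre protein, had 1 UMI against 86.2, 265 and 722 CPM. Fst (follistatin, which binds activins and myostatin) was at 6.71 CPM against 72.8 to 173 CPM, and the Wnt antagonist Sfrp1 at 11.2 CPM against 101 to 359 CPM. Htra3, a secreted serine protease, was at 103 CPM (95% interval 75.4 to 137) against 657 CPM in the pro-remodeling label. In the marker-bearing cells Efemp1, Fst, Sfrp1, Col6a6, Dpep1, Vtn and Emilin2 had 0 UMIs.

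Between day 2 and day 7, many matrix genes were higher and several inflammatory genes lower in the label. All 48 day 7 cells against the 16 day 2 cells gave 235 of 3808 genes 4-fold or more higher (6.17%) and 176 lower (4.62%), with a median log2 ratio of -0.21 over all genes entered. Scaled so that this median is 0, the counts were 287 higher and 129 lower. The balance depended on the setting, with 235 higher and 244 lower at a minimum of 20 CPM, and 60 higher and 125 lower when cells were thinned to 2000 UMIs. With the marker-bearing day 7 cells alone, 190 of 3670 were higher (5.18%) and 180 lower (4.90%), with a median of -0.33. The marker-bearing values are given below beside those of the whole label, because at day 2 all but 3 members were marker-bearing. The division was applied at day 7 only, and the day 2 group keeps all 16 cells, 2 of them with 0 marker UMIs. Differences of the marker-bearing cells from day 2 may therefore hold the choice of cells as well as time. Thbs4, present in 16 of 16 day 2 cells with 38 to 381 UMIs, was at 19359.9 CPM (95% interval 18679.6 to 20059) at day 2 and 24915 CPM (95% interval 24104 to 25746) in marker-bearing cells at day 7. In the whole day 7 label Thbs4 was at 10696 CPM (95% interval 10395 to 11004), below day 2. Fmod was at 2279.9 CPM (95% interval 2050.4 to 2528) at day 2 and 3986 CPM in the day 7 label, and at 12405 CPM in the marker-bearing cells, which were chosen in part by it.

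Most fibrillar collagens were higher at day 7, with or without the marker-poor cells. Of 8 fibrillar collagens that entered for the whole label, 7 were 4-fold or more higher and 0 lower (median log2 ratio 2.84), and for the marker-bearing cells 7 of 9 were higher (median 2.82). Of all genes entered in the same comparisons, 6.17% and 5.18% were higher. Col1a1 had 0 to 82 UMIs per cell at day 2 with a median of 12.5, and 18 to 574 per marker-bearing cell at day 7 with a median of 97.5. Its levels were 2052 CPM (95% interval 1835 to 2288), 15496 CPM (95% interval 14858 to 16154) in marker-bearing cells and 20559 CPM in marker-poor cells. At day 2, 4 cells with 53829 of the 157904 UMIs held 0 or 1 Col1a1 UMIs, and the other 12 cells were at 3094 CPM, with the marker-bearing level 5.01-fold above it. Col1a2 was at 2089.9 and 12112 CPM, a log2 ratio of 2.53 (95% interval 2.36 to 2.71). Col3a1 was at 494 CPM at day 2, 4389 CPM in marker-bearing and 18118 CPM in marker-poor cells. Of 13 other collagens, 7 of 11 that entered were higher for the label (median 2.97) and 3 of 10 for the marker-bearing cells (median 1.85). Col14a1 and Col15a1 were among the 7 and not among the 3, with 3 and 3 UMIs in the marker-bearing cells.

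Elastic fibre genes and some other matrix genes were also higher in the day 7 label. The counts stand beside 6.17% of all genes higher for the label and 5.18% for the marker-bearing cells. Of 13 elastic fibre genes that entered 9 were higher and 0 lower (median log2 ratio 2.32, and 6 of 12 with a median of 2.07 for marker-bearing cells), of 10 small leucine-rich proteoglycans 4 were higher (Bgn, Lum, Aspn and Ecm2; median 1.60), and of 17 collagen processing genes 6 were higher and Pcolce2 was lower (median 0.92). For marker-bearing cells 2 of 16 collagen processing genes were higher (Plod1 and Adamts2) and 0 lower (median 0.71), and 4 of 8 proteoglycans other than Fmod and Kera were higher (Bgn, Ogn, Aspn and Ecm2). Aspn (asporin) was at 25.3 CPM at day 2 and 914 CPM in marker-bearing cells. Lox was within 4-fold, at 2109 CPM at day 2 and 889 CPM in the day 7 label, and 1919 CPM in marker-bearing cells. Of 14 tendon glycoproteins that entered 7 were higher (median 1.96), and for marker-bearing cells 7 of 13 other than Comp and Tnmd (median 2.12). Postn had 10 UMIs in 3 of 16 cells at day 2 (63.3 CPM), 297 in 11 of 16 marker-bearing cells (2072 CPM) and 2530 in 32 of 32 marker-poor cells (8337 CPM). Ptx4 had 0 UMIs at day 2, where the floor of 3 counts is 19 CPM, and was at least 15.4-fold higher in marker-bearing cells at day 7.

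The 10 genes with the largest ratios of day 7 over day 2 in the whole label were Mmp13, Spp1, Postn, Aspn, Sparcl1, Mfap5, Mest, Ccl8, Cpxm1 and H19. Mmp13 had 0 UMIs in the 16 day 2 cells. It was at least 146-fold higher in the day 7 label, and at least 188-fold higher in the marker-bearing cells, which do not include the deepest cell. The imprinted genes Mest and H19 had 0 UMIs at day 2 and were at 1246 and 923 CPM in marker-poor cells, 112 and 105 CPM in marker-bearing cells, and 670.4 and 941 CPM in the day 7 pro-remodeling FAPs. Mfap5 was at 57 CPM at day 2, 195 CPM in marker-bearing and 3931 CPM in marker-poor cells. Ccl8 was at 12.7 CPM at day 2 and had 0 UMIs in marker-bearing cells. Cpxm1, a carboxypeptidase-like protein, and Sparcl1 were higher in the marker-bearing cells too, at 1500.1 and 802 CPM against 6.33 CPM for both at day 2.

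Several early inflammatory genes were lower at day 7. The 10 genes with the smallest ratios were Tuba1c, Crabp1, Gm26532, Nfkbia, Cxcl1, Lcn2, Zfp593, Myoc, Clu and Saa1. Nfkbia, the inhibitor of NF-kappaB that the pathway induces, was at 1254 CPM (95% interval 1085 to 1441) at day 2 and 67.1 CPM (95% interval 45.3 to 95.9) at day 7, and at 97.7 CPM in marker-bearing cells. Of 9 early inflammatory genes that entered, 5 were 4-fold or more lower (Cxcl1, Cxcl2, Ccl7, Lcn2 and Timp1) and 0 higher (median log2 ratio -2.39), and 5 of 8 were lower in the marker-bearing cells (median -2.43), beside 4.62% and 4.90% of all genes lower in the same comparisons. The neutrophil chemokine Cxcl1 was at 1197 CPM (95% interval 1032 to 1380.3) and 64.9 CPM (95% interval 43.5 to 93.2). The monocyte chemokine Ccl2 was at 519 CPM at day 2 and had 0 UMIs in marker-bearing cells at day 7, where it was at least 24.8-fold lower. In the whole day 7 label Ccl2 had 99 UMIs, 60 of them in the deepest cell, and was within 4-fold of day 2. Timp1, the metalloproteinase inhibitor, was at 3705 and 452 CPM, and 879 CPM in marker-bearing cells. No member of the 13 dissociation and immediate early genes was past 4-fold for the whole label (Fos at 2159.5 and 1553 CPM). Atf3 and Ier2 were lower in the marker-bearing cells.

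Angptl7 and Prg4 were 4-fold or more lower in the whole day 7 label. Angptl7 had 0 to 289 UMIs per cell at day 2, was present in 12 of 16 cells and was at 4256 CPM (95% interval 3940.0 to 4590.0). At day 7 it was at 394 CPM in the label, with 138 of its 176 UMIs in 1 cell, and at 1179 CPM (95% interval 1008 to 1371) in marker-bearing cells. Prg4 was present in 15 of 16 day 2 cells, at 5877 CPM (95% interval 5505 to 6268), and at 1556 CPM (95% interval 1358 to 1774) in marker-bearing day 7 cells. In both genes 1 day 2 cell held the most UMIs, 289 of 672 for Angptl7 and 411 of 928 for Prg4. The log2 ratio of marker-bearing cells to day 2 cells was -1.85 (95% interval -2.10 to -1.61) for Angptl7 and -1.92 (95% interval -2.13 to -1.70) for Prg4, both within 4-fold. These calls rest on single cells. Without the marker-bearing cell with 138 of the 169 Angptl7 UMIs, Angptl7 was at 247 CPM, 17.3-fold below day 2, and without the highest day 2 cell as well it was 12.1-fold below. Without the marker-bearing cell with the most Prg4, Prg4 was at 1413 CPM, 4.16-fold below day 2, and without the highest day 2 cell as well it was 2.85-fold below. Igfbp6 was at 823 and 447 CPM.

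**Figure D4:**
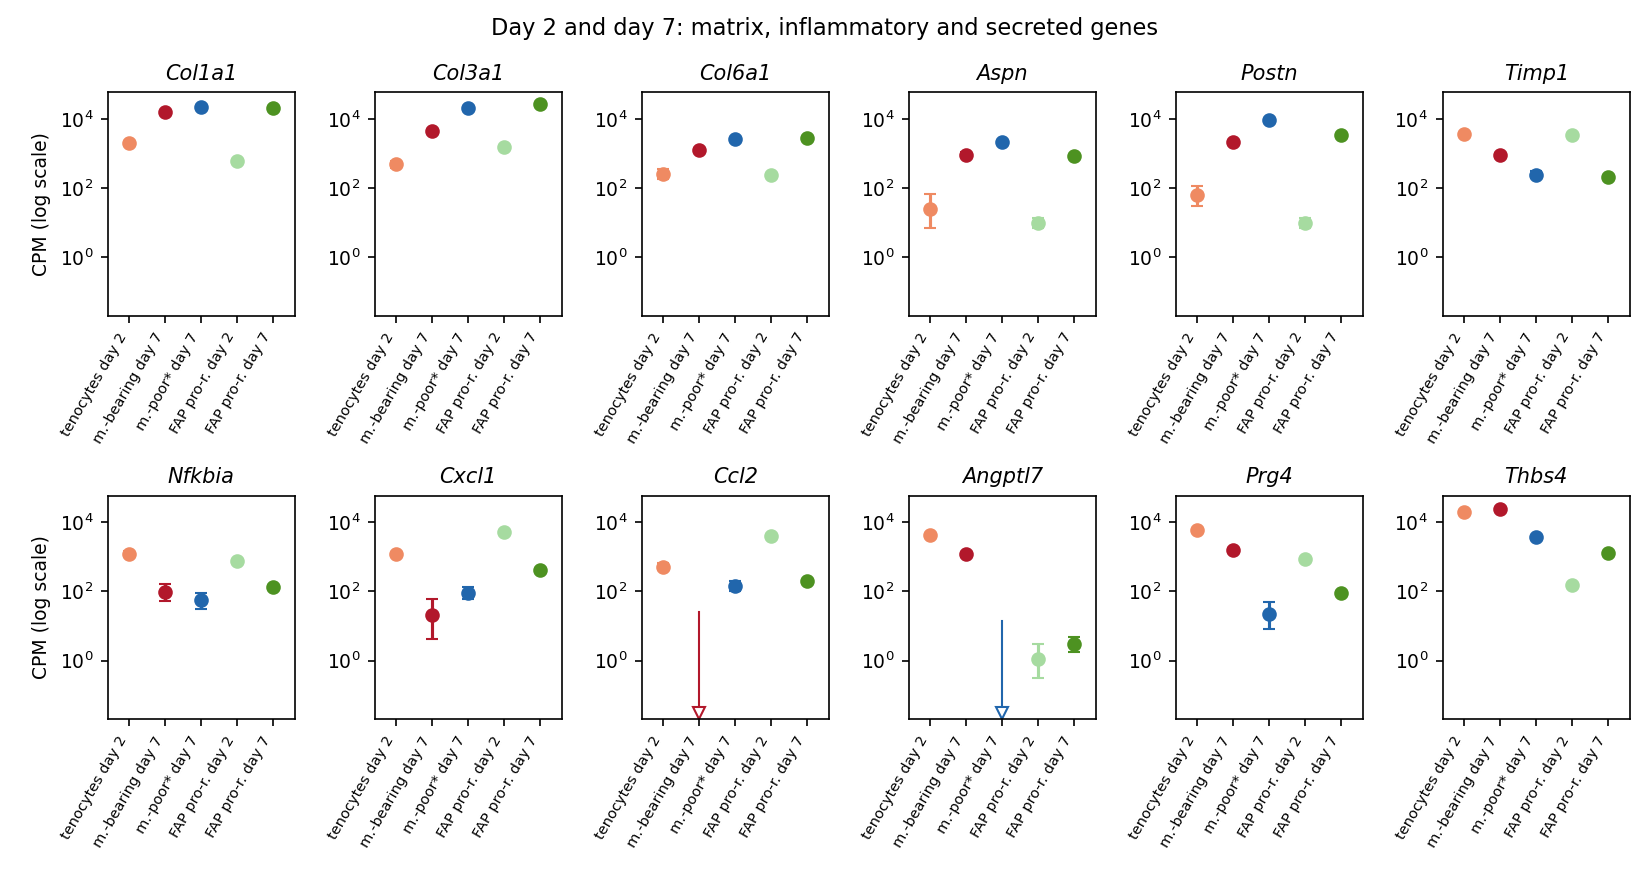
Levels in CPM (y axis, log scale) of 12 genes in day 2 tenocytes (16 cells), day 7 marker-bearing (16) and marker-poor cells (asterisk, without the deepest cell, 31), and pro-remodeling FAPs at day 2 (138) and day 7 (495), with 95% Poisson intervals for counting error only and open triangles for 0 UMIs. Collagens, Aspn and Postn are higher at day 7 in tenocyte and FAP groups alike, Timp1, Nfkbia, Cxcl1 and Ccl2 are lower, and Angptl7 is high in day 2 and marker-bearing cells, 1 of which held 138 of their 169 UMIs.

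At day 2 itself the tenocytes were set apart from the 138 pro-remodeling FAPs of that library, with 95 of 3552 genes 4-fold or more higher (2.67%) and 94 lower (2.65%) and a median log2 ratio of -0.01. The FAPs were deeper, with a median of 26218 UMIs against 6704. Angptl7 (1.14 CPM in those FAPs), Fmod, Comp, Clu and Kera led the higher genes, and Fmod, Comp and Kera had 0 UMIs in the 138 FAPs. Fmod was at least 2666-fold and Comp at least 940.3-fold higher. The secreted chaperone Clu was at 310.3 CPM (95% interval 229.6 to 410.3) against 0.57 CPM. Of 17 early inflammatory genes 16 entered and 12 were lower in tenocytes, with Lcn2 higher (median log2 ratio -2.98). Cxcl5 had 0 UMIs in the tenocytes against 7720.1 CPM in the FAPs, and was at least 406-fold lower. Il6 was at 25.3 against 682 CPM, Ptx3 at 6.33 against 1596 CPM, Cxcl1 at 1197 against 5351 CPM and Ccl2 at 519 against 4072 CPM. The acute-phase gene Saa3 was at 1019.6 and 635 CPM and Timp1 at 3705 and 3365 CPM, within 4-fold. Pdgfra was lower in day 2 tenocytes, at 76 against 639 CPM, and 6 of 12 FAP markers that entered were lower with Apod higher.

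Cells outside the label also held the marker genes at day 7. At day 7, 47 of 805 FAPs held 4 or more label-marker UMIs, 24 of 495 pro-remodeling, 22 of 232 adipogenic and 1 of 78 stem cells, and 19 of the 47 held more than 1 of the 4 genes. At day 2, 0 of 215 FAPs did, at greater depth. Comp was the main gene among them, with 317 UMIs in adipogenic FAPs, at 193 CPM (95% interval 172 to 215), and 168 in pro-remodeling FAPs. Macrophages had 0 of 492 cells at 4 or more and lymphocytes 0 of 417. In the ordering of labels by level at day 7 the Tenocytes label was first for all 4 markers, for Scx, Mkx, Thbs4, Tnc and for Mmp13. Scx was next in the Myoblasts/Progenitors label, with 82 UMIs in 175 cells (33.1 CPM), and Tnc next in the Neural label (224 CPM). At day 2 the tenocytes were not first for Tnc, at 272 CPM (95% interval 197 to 367), and it was at 395 CPM in the 9 cells of the Neural label and 346 CPM (95% interval 326 to 366) in pro-remodeling FAPs, and the interval of the tenocytes covers the value of those FAPs. Scx at day 2 was at 88.7 CPM (95% interval 48.5 to 149) in tenocytes and 62.5 CPM (20.3 to 146) in the 21 cells of the MuSCs label, whose intervals overlap.

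Markers of other cell types differed between lists and between the kinds of member. Of the lists for endothelial, lymphocyte, neutrophil, haemoglobin, and cartilage and bone genes, no member entered the comparison of the 48 cells with any FAP label. In the 48 day 7 members the 7 endothelial markers summed to 49.2 CPM (97.7 CPM in marker-bearing cells, against 39.4 CPM in pro-remodeling FAPs), the 7 lymphocyte markers to 6.71 CPM, the 5 neutrophil markers to 4.48 CPM, and the haemoglobin genes had 0 UMIs. The 10 monocyte and macrophage markers summed to 257 CPM, with 9 of 10 detected, against 166 CPM in pro-remodeling FAPs and 6764 CPM in barcodes of 1 to 100 counts, which hold free RNA. They were at 433 CPM in marker-bearing and 175 CPM in marker-poor cells, and C1qb was past 4-fold in the former. The 2 Col22a1 cells described above held 41 of the 62 UMIs of the marker-bearing cells, and the other 14 were at 167 CPM. Smooth muscle and pericyte markers summed to 98.5 CPM against 93.5 CPM in those FAPs. Glial markers were at 53.7 CPM, and Ncam1 was the 1 of them past 4-fold in marker-bearing cells. Of the 7 myogenic markers Chodl made up 63 of 75 UMIs, and the list was at 168 CPM in the 48 cells and 454 CPM in marker-bearing cells, against 31.1 CPM in pro-remodeling FAPs. The 9 myofibre genes were at 772 CPM at day 7 and 12.7 CPM at day 2, beside 629 and 12.3 CPM in pro-remodeling FAPs and 25116 and 694 CPM in the barcodes of free RNA, and 4 of 5 that entered were higher at day 7 in the whole label. The 13 proliferation genes had 14 UMIs in the 48 day 7 cells and 13 in the 16 day 2 cells, and Pcna was the 1 member that entered between time points, lower at day 7. The part of other cell types in the ratios above was not tested.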

How the data were processed

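The 2 libraries are single-cell 3′ RNA-seq of dissociated tibialis anterior after notexin. Per the file headers and the submitters' processing notes the authors aligned reads to mm10 and counted UMIs with Cell Ranger (3.0.1 in the matrix header, 3.1.0 in the notes), and the raw and filtered count matrices were deposited. The authors also deposited estimated counts from SoupX, which subtracts free RNA, used here as an alternative. Their annotation of cell types, made with Seurat 3.1.5 over many more samples after removal of putative doublets, was deposited per library. No doublet caller was run here.

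Counts were summed per label and library in Python 3.11.15 (numpy 2.4.6, scipy 1.17.1, pandas 2.3.3, matplotlib 3.10.9) for cells with at least 750 genes, 1000 transcripts and at most 30% mitochondrial transcripts. Genes entered at 50 CPM in either group with UMIs in 20% of its cells, and were counted at a 4-fold difference, with counts under 3 raised to 3 for that count. Shares have Clopper-Pearson, levels Poisson and ratios conditional binomial 95% intervals. With 1 library per time point no test was run. Cells with the label were compared with each FAP label, and day 7 with day 2. The ratio code was tested on simulated data.

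The genes named with every FAP label in view were the 15 furthest from all 3 FAP labels in each direction, and between time points the 10 with the largest and smallest ratios, beside the 4 markers, Scx, Mkx and the listed groups. The members and lists were chosen with earlier results of these data known. The division at 4 marker UMIs, the exclusion of the deepest and other single cells and the marker-bearing comparisons were added after the data were seen, as was naming genes from them. The alternatives were SoupX values, no and stricter limits on cells, another scaling, per-cell means, leaving out the cell with most counts of a gene, a 20 CPM minimum, no minimum share of cells, and thinning to 2000 UMIs. Promoter sequences are from RefSeq. Some items are not reported here.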

Additional observations from a re-analysis of the deposited data

Results flagged for a closer look

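In 5 of the genes named above, the log2 ratio of tenocytes over pro-remodeling FAPs of the same library had opposite signs at day 2 and day 7, with intervals that excluded 0 at both. These differences between time points rest on 1 library each and were not tested. All 5 were among the 10 genes with the largest or the 10 with the smallest day 7 to day 2 ratios, a choice that favours such changes. The share of all genes with such a change was not counted. For Spp1 the ratio differed by 6.37, from -1.65 (95% interval -3.54 to -0.28) at day 2 to 4.72 (4.58 to 4.86) at day 7, and 1 cell held 1152 of the 1282 day 7 UMIs. For the secreted glycoprotein Myoc the difference was -7.04, from 3.87 (95% interval 3.42 to 4.31) at day 2 to -3.18 (-4.13 to -2.37) at day 7. For Mfap5 it was 3.72, from -3.15 (95% interval -4.28 to -2.22) at day 2 to 0.57 (0.49 to 0.66) at day 7. The day 7 sign of Mfap5 differed between the kinds of cell, at -3.23 (95% interval -3.82 to -2.70) in marker-bearing cells, the same sign as at day 2, and 1.10 (95% interval 1.01 to 1.19) in marker-poor cells. For Cpxm1 it was 6.09, from -5.68 (95% interval -10.98 to -3.19) at day 2 to 0.41 (0.25 to 0.57) at day 7, with 1 Cpxm1 UMI in the 16 day 2 cells, and the day 7 ratio was 1.38 (95% interval 1.17 to 1.58) in marker-bearing and -0.44 (95% interval -0.71 to -0.19) in marker-poor cells. For Nfkbia it was -1.74, from 0.76 (95% interval 0.54 to 0.97) at day 2 to -0.98 (-1.56 to -0.46) at day 7, and in marker-bearing cells alone the day 7 ratio was -0.44 (95% interval -1.32 to 0.31), an interval that includes 0.

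Label-marker UMIs were also found in barcodes outside the annotation. Of 1299 such barcodes at day 2, 3 held 4 or more. The largest, of 34030 UMIs, held 38 Fmod, 28 Comp and 308 Thbs4 UMIs and also 8 of Ptprc. Of 1473 at day 7, 2 held 4 or more, with 8 and 5 marker UMIs. At day 2 no cell of another label held 4 or more.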

How the results depend on the processing

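Of 132 summary values under alternatives, 115 stayed within 1.5 times the reported count or within its interval and 17 moved further. A change of sign was checked only for the difference in share between time points, which kept its sign. The tenocyte share of non-immune cells was 1.76% at day 2 and 2.57% at day 7. As a share of cells of all types, members with at least 4 label-marker UMIs were 0.501% at day 7, a difference of 0.0916 points from day 2. With the marker-bearing cells alone, an alternative chosen after the data were seen, 115 genes were higher and 161 lower than in pro-remodeling FAPs, 107 and 137 against adipogenic FAPs, and 176 were higher against stem FAPs. Thinned to 2000 UMIs per cell, which leaves fewer genes to enter, 14 were higher than in pro-remodeling FAPs, 23 higher and 41 lower than in adipogenic FAPs, 56 higher and 107 lower than in stem FAPs, and 60 higher and 125 lower at day 7 than at day 2. With a minimum of 20 CPM, 235 were higher and 244 lower at day 7 than at day 2. Leaving out, for each gene, the tenocyte with the most counts gave 96 lower than in pro-remodeling FAPs, and no minimum share of cells gave 58 higher. The cause was not tested.

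Of 1375 values of named genes under alternatives, 231 moved, 93 of them on thinning and 62 with marker-bearing cells alone. A reversal was counted only for genes past 4-fold as reported, and 0 were found. Sign changes of other genes were not counted as reversals. The 20 CPM minimum and the lack of a minimum share of cells leave each ratio as it was, so their 125 values each could not move. No paired analysis was possible because each time point has 1 library. Depth limits low values: 3 UMIs correspond to 19.0 CPM in the 16 day 2 cells (157904 UMIs) and to 20.9 CPM in the 16 marker-bearing cells (143327 UMIs).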
